A study of Caenorhabditis elegans with 12 samples.

Results

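Acetylation of lysine 5 of histone H4 (H4K5ac) was measured against input DNA in whole adult Caenorhabditis elegans, and every gene of the deposited H4K5ac table is described here. The worms were of the wild-type strain Bristol N2, fed the bacterial strain E. coli OP50 at 20 °C. They carried no transgene and received no treatment, and the labels give no age beyond the adult stage. The 6 samples are 3 libraries of chromatin precipitated with an H4K5ac antibody (IP) and 3 libraries of input DNA, numbered as replicates 1 to 3. The table names 5632 genes for 6432 regions, out of 7552 genes named in the series. Of the 5632 genes, 3751 are also named in the table of another mark of the series, acetylation of lysine 8 (H4K8ac), and 1881 are not. All 5632 passed the filter on low counts and were tested.

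Acetyl groups on the tail of histone H4 remove positive charge from lysines and are bound by bromodomain proteins. Lysine acetyltransferases add them and histone deacetylases take them off, and acetylated H4 is widely found at the starts of transcribed genes. New H4 also carries acetyl groups on its tail when it is deposited during DNA replication. The series title places the mark in the setting of histone deacetylation and lipid metabolism, so genes of both are described one by one below.

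Total counts were 8210104 to 9156392 in the IPs and 5460429 to 8911486 in the inputs. Levels are given in CPM, counts scaled to a common library size with TMM factors. Folds are given as log2 of IP over input. Their standard errors (SE) were derived from the model fit to 3 libraries per group. The deposited lines run from the highest to the lowest ratio of IP to input (Spearman correlation of line number and ratio -1.0) and stop at a log2 ratio of -0.21 as deposited. Region numbers reach 9300, and 2868 of them are missing. A fold therefore compares a gene with the typical listed gene. "Lower" means less IP signal than that gene and does not show that the mark is absent. The material was whole animals, so a mark in fewer cells and less of the mark per cell cannot be told apart. The deposited counts behaved like reads near the start of a gene that were shared out between genes lying close together. Of the genes, 4590 have another annotated gene within 2 kb of their start, and the neighbour may hold the signal. Coding neighbours are named below for genes given with the level in each library. For other genes one may be there unnamed.

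IP replicate 1 stood apart in its range. The SD of its log2 folds over the mean input, across the genes, was 0.475, against 0.372 in replicate 2 and 0.31 in replicate 3. Among the 100 genes with the highest folds its median was 1.53, against 1.19 and 0.99. It held the highest of the 3 IP levels at 71.8% of the genes called higher below. Its highest percentiles lay above and its lowest percentiles below those of the other IPs. The sizes of folds at the ends of the table thus rest in part on this library, and the folds of the leading genes are given without it too.

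**Figure D1:**
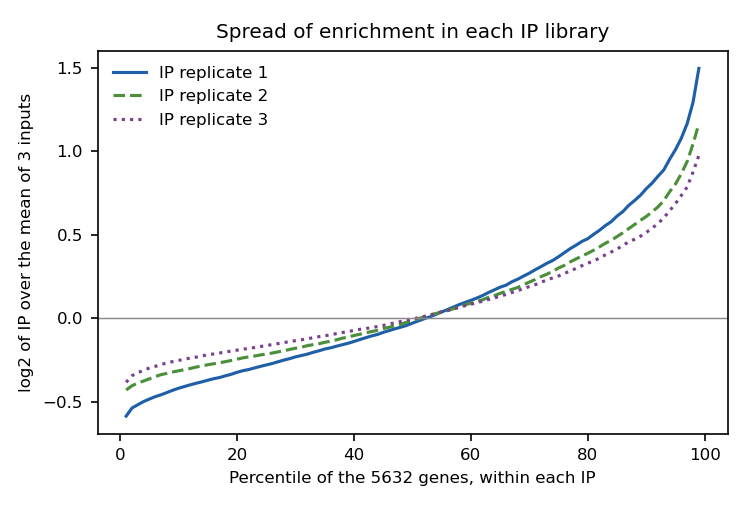
Log2 of each IP library over the mean of the 3 inputs (vertical axis) at each percentile of the 5632 genes (horizontal axis), 1 line per IP replicate. The line of replicate 1 is the steepest, from -0.58 at the lowest percentile, and that of replicate 3 the flattest, from -0.38 at the lowest to 0.97 at the highest.

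Relative to the typical listed gene, IP over input was higher at 1811 genes (32.2%) and lower at 1659 (29.5%). Together these are 61.6% of all genes. The test was edgeR's quasi-likelihood model at a Benjamini-Hochberg adjusted p of 0.05. The regions were called on these same IPs, so every gene is listed for a region of IP signal. Log2 folds ran from -0.39 to 1.94 around a median of -0.017. All 3 IP levels lay above all 3 inputs at 1980 genes (35.2%) and below them at 1863 (33.1%). Scaled by total count, the median was -0.152, with 1349 genes higher and 2627 lower. Scaling to the 10% least enriched genes set the median at 0.327, with 3619 higher and 0 lower by the same edgeR test, and 0 lower at an unadjusted p under 0.05 too. That scaling places the lowest folds near 0 by its construction. Without IP replicate 1 there were 1846 higher and 1747 lower genes, and without input replicate 2 there were 1570 higher and 1079 lower. Of the calls, 1504 of those higher (26.7% of all genes) and 910 of those lower (16.2%) held in each of the 6 fits that left out 1 library, called leave-one-out fits below.

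Of the 12 highest genes, 3 were chaperone genes and 1 a proteasome gene, and the other 8 belonged to none of the gene lists used here. Genes at both ends, and the highest and lowest of each list, were named only where IP and input levels did not overlap. Their lack of overlap is thus part of the choice. The highest fold was at hsp-60, the gene of the mitochondrial chaperonin. Its IP levels were 1035, 693.8 and 563.2 CPM and its input levels 208.5, 185.8 and 205.4 CPM. Even the lowest IP lay far above the highest input, and the log2 fold was 1.94 ± 0.20 (edgeR adjusted p = 2.066e-05). It was 1.65 without IP replicate 1. The region lies at III 1612801 to 1625999, in the WBcel235 coordinates that the files list. It also covers the start of Y22D7AL.10, a gene beside hsp-60 that the H4K8ac table names for the same place.

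The cytosolic chaperones followed closely. At hsp-90, the gene of the Hsp90 chaperone, IP levels were 646.9, 510.7 and 450 CPM and inputs 172.1, 168.2 and 165.6 CPM (log2 fold 1.67 ± 0.14, edgeR adjusted p = 7.846e-06). C47E8.4 lies within 2 kb of its start. The 3 inputs were nearly equal and the IPs were all well above them. At hsp-1, which encodes a constitutive Hsp70 chaperone, IP levels were 277.5, 201.3 and 172.4 CPM and inputs 73.4, 65.2 and 68.3 CPM (1.66 ± 0.15), and the neighbour is the lectin gene clec-196. Without IP replicate 1 the fold of hsp-90 was 1.504.

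The proteasome gene rpn-3, which encodes a lid subunit of the regulatory particle, had IP levels of 708, 587.4 and 512.4 CPM and inputs of 186.3, 172.3 and 164.6 CPM (1.79 ± 0.14, edgeR adjusted p = 7.846e-06; 1.65 without IP replicate 1). Within 2 kb of its start lies hsp-110, the gene of a large heat shock protein. The alpha-tubulin gene tba-2 had IP levels of 363.4, 288.7 and 238.4 CPM against inputs of 121.2, 100.6 and 95.5 CPM (1.49 ± 0.14), and lies beside the proteasome gene pbs-2 and C47B2.2. At K08D12.3, IP levels were 442.1, 278.2 and 234.4 CPM and inputs 121.2, 111.4 and 109.1 CPM (1.48 ± 0.18; 1.16 without IP replicate 1). Within 2 kb of the start of this gene lie pbs-1, another proteasome gene, pugs-4 and rpi-2. In all of these genes replicate 1 was the highest IP.

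The other genes among the 12 highest were R107.5 (log2 fold 1.92 ± 0.17), abcf-2, which encodes an ATPase of the ABC family (1.63 ± 0.14), M04B2.10 and F16A11.9, which are non-coding (1.61 and 1.58), W03F9.1 (1.55 ± 0.11), B0546.4 (1.51), and F22D6.2 (1.52), whose present name is mstr-1. At R107.5 the fold was 1.73 without IP replicate 1. All 12 were past the threshold in every leave-one-out fit. The coding neighbours were cls-2 for R107.5, T27E9.2, ant-1.1 and tag-164 for abcf-2, gfl-1 and mep-1 for M04B2.10, and ppfr-1 for F16A11.9. For W03F9.1 they were W03F9.2 and sftb-2, for F22D6.2 kin-14 and for B0546.4 B0546.3.

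**Figure D2:**
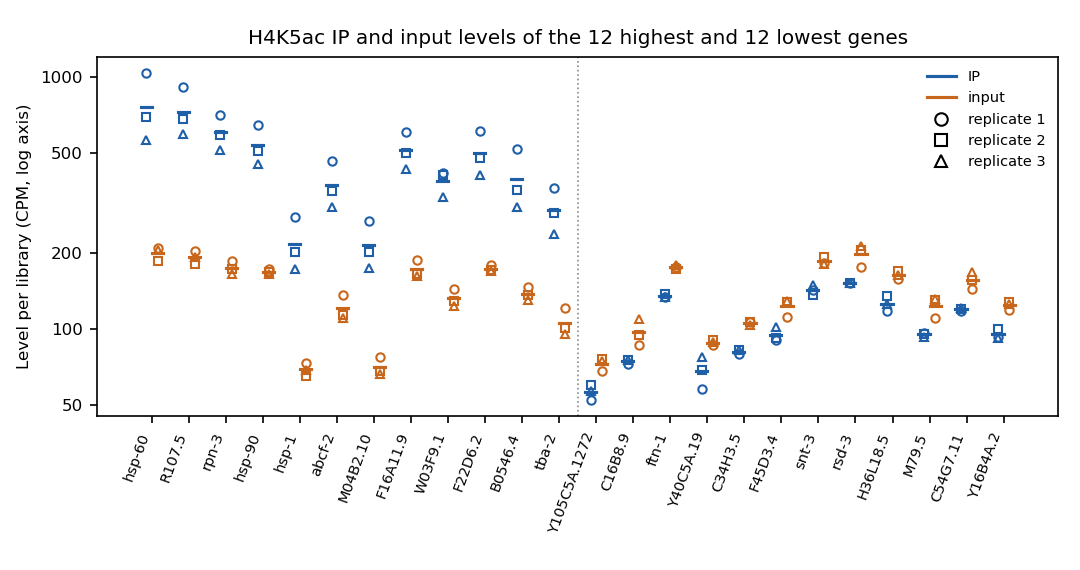
Levels in CPM (log axis) of the 12 genes with the highest and the 12 with the lowest folds past the threshold, left and right of the dotted line. Each open symbol is 1 library (circle, square and triangle for replicates 1, 2 and 3), IPs in blue and inputs in orange, and short bars are group means. Only genes without overlap of IP and input levels were eligible. The IPs lie above the inputs by most at hsp-60, and below them by a small margin at the 12 lowest.

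The lower end was flat, and its order was not resolved. The deposited lines stop at this end, at a log2 ratio of -0.21 as deposited, so any gene with a lower ratio is not listed. The 12 lowest genes had log2 folds from -0.38 to -0.39 with SEs of 0.06 to 0.09, and the 100 lowest genes all lay at or below -0.36. Among the 12 were snt-3, the gene of a synaptotagmin, a calcium sensor of vesicle release, and ftn-1, the gene of a ferritin, which stores iron. At snt-3 the IP levels were 143.2, 135.8 and 148.7 CPM and the inputs 183.2, 192.3 and 180.6 CPM (-0.38 ± 0.07, edgeR adjusted p = 0.0007748). At ftn-1 they were 134.2, 137.8 and 133.7 CPM against 175.7, 172.7 and 178.9 CPM (-0.38 ± 0.07, edgeR adjusted p = 0.0005225), with C54F6.19 as its neighbour. In both genes the libraries of a group were close to each other. That the groups did not overlap was a condition of the choice.

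The X-linked gene rsd-3, named for its part in the systemic spread of RNA interference, had IP levels of 152.5, 152.5 and 152 CPM and inputs of 175.5, 206.3 and 212.7 CPM (-0.38 ± 0.08). Its input replicate 1 was nearer to the IPs than the other inputs were. The remaining members of the 12 were the protein-coding genes Y16B4A.2 and F45D3.4, another protein-coding gene with a sequence name only, and the non-coding genes C54G7.11, M79.5, H36L18.5, C34H3.5, Y40C5A.19 and C16B8.9. All 12 kept their call in every leave-one-out fit. Scaled to the least enriched genes, none of them was past the threshold.

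The ends differed in the kind of gene they held. The 100 highest genes included 85 protein-coding and 13 unclassified non-coding (ncRNA) genes, and the 100 lowest 59 and 30, against 4278 and 951 of all genes. Of the 100 highest, 28 belonged to one of the gene lists described next, among them 6 chaperone, 3 respiratory chain and 2 ribosomal protein genes. Of the 100 lowest, 22 did, among them 6 piRNA genes, 2 collagens and 2 genes of neuronal transmission. Of all genes, 1052 (18.7%) belonged to a list, so the share at the lower end was close to that of the table. These counts describe the ends and carry no test.

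Genes of protein synthesis stood higher than the table as a whole. All 12 listed genes of cytosolic ribosomal proteins were higher (100%, against 32.2% of all genes). Their median log2 fold was 0.859, against -0.017 for all genes. The highest was rla-0, the gene of the ribosomal stalk protein P0, with IP levels of 179.5, 141.3 and 125.8 CPM and inputs of 66.01, 60.19 and 61.37 CPM (1.25 ± 0.12, edgeR adjusted p = 1.033e-05), and the coding neighbours are pas-5 and tct-1. All 12 calls of the group held in every leave-one-out fit. Of 13 translation factor genes, 12 were higher and 0 lower (median 0.541), led by eif-3.D, a subunit of initiation factor eIF3 (0.88 ± 0.10). Of 11 aminoacyl-tRNA synthetase genes, which charge transfer RNAs, 8 were higher and 2 lower (median 0.511). They ranged from the lysyl-tRNA synthetase gene kars-1 (0.93 ± 0.10) to dars-2, for a mitochondrial aspartyl-tRNA synthetase (-0.31 ± 0.08). Of 16 mitochondrial ribosomal protein genes, 10 were higher and 0 lower (median 0.255; 1 lower in the fit with the replicate block), with mrpl-40 at 1.13 ± 0.14.

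Genes of protein folding and breakdown were also mostly higher. Of 29 chaperone and co-chaperone genes, 23 were higher and 1 lower (median 0.408; 2 lower with the replicate block). Of 9 proteasome genes, 8 were higher and 0 lower (median 0.688), and all 8 kept the call in every leave-one-out fit. Of 21 genes of the ubiquitin pathway, which marks proteins for breakdown, 13 were higher and 3 lower (median 0.418). At their ends stood ubc-20, for a ubiquitin-conjugating enzyme (1.35 ± 0.14), and skr-3, for a Skp1-related adaptor of ubiquitin ligases (-0.36 ± 0.08).

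Genes of energy supply, RNA splicing and traffic followed the same direction. Of 17 genes of the mitochondrial respiratory chain, ATP synthase and their assembly, 15 were higher and 1 lower (median 0.615). The highest was atp-2, which encodes the beta subunit of ATP synthase. Its IP levels were 410.3, 329.6 and 287 CPM and its inputs 143.7, 138.6 and 125.4 CPM (1.33 ± 0.12, edgeR adjusted p = 9.576e-06). Its coding neighbours are nex-1, C34E10.10 and C34E10.12. The lower one was the assembly factor gene cox-18 (-0.18 ± 0.07, edgeR adjusted p = 0.03987), whose call was lost in 5 of the 6 leave-one-out fits. Of 21 genes of splicing and hnRNP proteins, 20 were higher and 0 lower (median 0.410), led by rsp-3, for an SR splicing factor (1.25 ± 0.14). Of 41 genes of small GTPases and vesicle traffic, 31 were higher and 2 lower (median 0.339). They ranged from sec-61, a gene of the protein channel of the endoplasmic reticulum (1.26 ± 0.17), which lies beside the ribosomal protein gene rps-18 and hhat-2, to vps-54, a subunit of a tethering complex (-0.37 ± 0.10). Of 26 cell cycle genes, 17 were higher and 2 lower (median 0.425), with the spindle checkpoint gene mdf-1, beside his-35, his-41 and C50F4.6, at 1.15 ± 0.10 and cdk-4, an X-linked gene of a G1 cyclin-dependent kinase, at -0.29 ± 0.08. The call of cdk-4 was lost without input replicate 2 (edgeR adjusted p = 0.0539), and neither lower call of the group held in every leave-one-out fit.

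Several large families of receptor, channel and defence genes held more lower than higher members. Of 31 C-type lectin genes, whose products bind sugars and are linked to defence, 21 were lower (67.7%, against 29.5% of all genes) and 2 higher, with a median of -0.277. At clec-72, IP levels were 95.6, 105.6 and 110.7 CPM and inputs 135.9, 128.4 and 140.3 CPM (-0.37 ± 0.08, edgeR adjusted p = 0.001453), with Y46C8AL.11 as its coding neighbour. Of 16 ion channel genes, 9 were lower (56.2%) and 2 higher (median -0.261), from the potassium channel gene slo-2 (-0.38 ± 0.07) to the chloride channel gene clh-6 (0.59 ± 0.08). Of 29 chemoreceptor genes, 17 were lower (58.6%) and 2 higher (median -0.206). Of 30 genes of neuropeptides and neurotransmitter receptors, 15 were lower (50%) and 3 higher (median -0.192), with the dopamine receptor gene dop-5 at -0.36 ± 0.07. Of 11 other neuronal genes of transmission, 4 were lower (36.4%, near the share of all genes) and 0 higher (median -0.148). Among 13 genes of lysozymes, saposin-like proteins and antimicrobial peptides, 6 were lower (46.2%) and 3 higher (median -0.176), from spp-4 (-0.36 ± 0.08) to spp-1 (0.59 ± 0.09). The lower calls that held in every leave-one-out fit numbered 13 for the lectins, 7 for the channels, 9 for the chemoreceptors, 12 for the neuropeptide and receptor genes, 3 for the neuronal genes and 2 for the antimicrobial genes. They are 41.9% of the lectins, 43.8% of the channels and 31% of the chemoreceptors. Of the neuropeptide and receptor genes they are 40%, and of the neuronal genes 27.3%. The 2 antimicrobial genes are 15.4% of their list, against 16.2% of all genes.

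Families of regulators, structural proteins and enzymes also held more lower than higher members. The 65 genes of nuclear hormone receptors held 25 lower (38.5%) and 8 higher members (median -0.137), with nhr-90 at -0.37 ± 0.06. Of 14 homeobox and bHLH transcription factor genes, 7 were lower (50%) and 3 higher (median -0.179), from the Hox gene ceh-13 (-0.36 ± 0.09) to hlh-11 (0.42 ± 0.08). The 58 genes of F-box, MATH and BATH proteins, many of them adaptors of ubiquitin ligases, held 25 lower (43.1%) and 8 higher members (median -0.168), from fbxc-7 (-0.36 ± 0.07) to bath-40 (1.03 ± 0.10). Of 54 cuticle collagen genes, 19 were lower (35.2%) and 8 higher (median -0.078), with col-10 at -0.36 ± 0.08. Of 33 genes of cytochrome P450, UGT, GST and dehydrogenase enzymes, 11 were lower (33.3%) and 5 higher (median -0.066), from gst-16 (-0.37 ± 0.07) to alh-8, for an aldehyde dehydrogenase (1.13 ± 0.15). The lower shares of the collagens and of these enzymes are near that of all genes (29.5%). Their higher shares are 14.8% and 15.2%, against 32.2% of all genes. Lower calls held in every leave-one-out fit at 13 nuclear receptor genes (20%), 3 homeobox and bHLH genes (21.4%) and 17 F-box, MATH and BATH genes (29.3%). They held at 12 collagens (22.2%) and 7 enzymes (21.2%). Of all genes 16.2% held a lower call so, and only the F-box, MATH and BATH share lies far above that.

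In some of these families the highest member lay beside a coding gene of another family. These pairs were picked after their values were seen, and how often other genes have such a neighbour was not counted. The chemoreceptor gene srbc-58 had IP levels of 307, 217.9 and 182.4 CPM and inputs of 107.2, 98.2 and 93.3 CPM (1.24 ± 0.15). Within 2 kb of its start lies sti-1, the gene of a co-chaperone of Hsp90. At the same distance the receptor gene nhr-61 (0.58 ± 0.11) has the ribosomal protein gene rpl-37.1. The lectin gene clec-87 (0.54 ± 0.08) has the tRNA synthetase gene iars-2 and rsa-1 there. The collagen gene col-111 (0.79 ± 0.12) has the mitochondrial ribosomal protein gene mrps-21 and psr-1. The receptor gene npr-23 (0.79 ± 0.11) has vps-4, a gene of membrane traffic. Which gene of each pair the reads came from was not tested.

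Genes that mark tissues gave mixed counts. Chromatin of every cell holds every gene, so these lists cannot check which tissues were sampled. Of 20 germ granule and oocyte genes, 10 were higher (50%, against 32.2% of all genes) and 1 lower (median 0.174). With the replicate block 2 were lower. Higher calls held in every leave-one-out fit at 7 of these genes (35% of the list, against 26.7% of all genes). They ranged from cbd-1, for an eggshell protein (0.59 ± 0.08), to perm-2, also for an eggshell protein (-0.35 ± 0.06). Of 15 sperm genes, 8 were lower (53.3%, against 29.5% of all genes) and 3 higher (median -0.200). These ranged from the major sperm protein gene msp-76 (-0.36 ± 0.07) to spe-15 (0.68 ± 0.11). Lower calls held in every leave-one-out fit at 3 of them (20% of the list, against 16.2% of all genes). Of 17 muscle genes, 5 were lower and 4 higher (median -0.113), from the myosin light chain gene mlc-2 (-0.31 ± 0.07) to unc-60, for actin depolymerizing factors (1.03 ± 0.11). Of 7 intestinal genes, 3 were lower (42.9%, against 29.5% of all genes) and 1 higher (median -0.135). Of these lower calls, 1 held in every leave-one-out fit (14.3% of the list, against 16.2% of all genes). Of 9 hypodermal genes, 3 were lower and 2 higher (median -0.099), from the GATA factor gene elt-1 (-0.29 ± 0.07) to vab-10, for a spectraplakin (0.53 ± 0.09). The lower shares of the muscle genes (29.4%) and the hypodermal genes (33.3%) are near that of all genes (29.5%). Their higher shares are 23.5% and 22.2%, against 32.2% of all genes.

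Lipid genes, the subject of the series title, were grouped by role. Transcription regulators were counted in these groups too. The genes nhr-66, nhr-13 and hlh-30 were listed with fat breakdown, and nhr-49, nhr-80 and sbp-1 with synthesis. A regulator may act outside the group it was listed in, so the group counts do not describe enzymes alone. Of 14 genes of lipolysis and fatty acid oxidation, 8 were higher and 3 lower (median 0.267), and all 11 calls held in every leave-one-out fit. At atgl-1, the gene of adipose triglyceride lipase, which starts the breakdown of stored fat, IP levels were 410.7, 409.6 and 381.1 CPM and inputs 224.2, 223.7 and 238.9 CPM (0.81 ± 0.09, edgeR adjusted p = 3.461e-05), with fhip-1 as its neighbour. At cpt-2, for a carnitine palmitoyltransferase of fatty acid import into mitochondria, they were 256.2, 274 and 254.5 CPM against 156.2, 153.8 and 152.2 CPM (0.76 ± 0.07), with prx-14 as its neighbour. At both genes the 3 IPs were close together and well above the inputs, and replicate 1 did not stand out.

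The highest gene of fat breakdown was ech-4, for an enoyl-CoA hydratase family member, at 0.89 ± 0.09. The acyl-CoA dehydrogenase genes went both ways: acdh-7 was at 0.67 ± 0.10, acdh-12 at 0.56 ± 0.08 and acdh-8 at -0.36 ± 0.08. Smaller higher folds were at hosl-1, the gene of a hormone-sensitive lipase (0.33), ech-6 (0.27) and nhr-66 (0.27). Scaled by total count, ech-6 (0.133, edgeR adjusted p = 0.137) and nhr-66 (0.131, edgeR adjusted p = 0.119) missed the threshold. The lower genes besides acdh-8 were daf-22, which encodes a thiolase of peroxisomal fatty acid shortening and ascaroside pheromone synthesis (-0.30 ± 0.08), and the nuclear receptor gene nhr-13 (-0.26 ± 0.06).

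Of 15 genes of fatty acid, triglyceride and phospholipid synthesis, 4 were higher and 7 lower (median -0.158). The higher ones were nhr-49, a nuclear receptor gene that regulates fat oxidation and desaturation (0.47 ± 0.09), the elongase gene elo-1 (0.40 ± 0.08), the desaturase gene fat-4 (0.38 ± 0.08) and the nuclear receptor gene nhr-80 (0.21 ± 0.08). The call of nhr-80 was lost in 5 of the 6 leave-one-out fits and under total count scaling (0.073, edgeR adjusted p = 0.366). The lowest was pmt-2, for a methyltransferase of phosphatidylcholine synthesis. Its IP levels were 164.4, 161.7 and 155.8 CPM and its inputs 195.4, 212.9 and 215.8 CPM (-0.37 ± 0.07, edgeR adjusted p = 0.0007419), with sumv-2 as its neighbour. At the fatty acid synthase gene fasn-1 the IPs were 168.1, 180 and 199.5 CPM and the inputs 204.5, 235 and 226 CPM (-0.28 ± 0.08, edgeR adjusted p = 0.01035), so the highest IP came close to the lowest input. The other lower genes were sbp-1, the worm SREBP gene, a transcriptional regulator of lipid synthesis (-0.24), the elongase gene elo-2 (-0.23), acl-1, for an acyltransferase (-0.20), the S-adenosylmethionine synthetase gene sams-1 (-0.19) and the desaturase gene fat-5 (-0.17). Of the 7 lower calls, 1 held in every leave-one-out fit, that of pmt-2, and without input replicate 2 fasn-1, sbp-1, elo-2, acl-1, sams-1 and fat-5 all missed the threshold. With genes that have a listed neighbour left out, 4 were lower, and the median of the group minus that of all genes turned positive (0.082). The acetyl-CoA carboxylase gene pod-2 was at -0.16 ± 0.11 (edgeR adjusted p = 0.2362) and at -0.31 without IP replicate 1 (edgeR adjusted p = 0.00125). It was lower under total count scaling too (-0.298, edgeR adjusted p = 0.0219).

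Lipid storage and transport genes numbered 12, of which 2 were higher and 4 lower (median -0.129). The lower share (33.3%) is near that of all genes (29.5%), and the higher share is 16.7%, against 32.2%. The lipid-binding protein gene lbp-9 had IP levels of 643.4, 481.1 and 400.2 CPM and inputs of 223.5, 207.2 and 200.8 CPM (1.27 ± 0.16, edgeR adjusted p = 5.05e-05), and lies beside nhr-86 and Y40B10A.9. The perilipin gene plin-1, whose product coats lipid droplets, was at 0.60 ± 0.09. The yolk protein gene vit-6 (-0.28 ± 0.07), its relative vit-1 (-0.18 ± 0.07) and the lipid-binding protein genes lbp-1 (-0.29 ± 0.07) and lbp-3 (-0.30 ± 0.08) were lower. The call of vit-1 was lost in 5 leave-one-out fits. Vitellogenin genes resemble each other closely, so reads of vit-1 may belong to a copy.

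**Figure D3:**
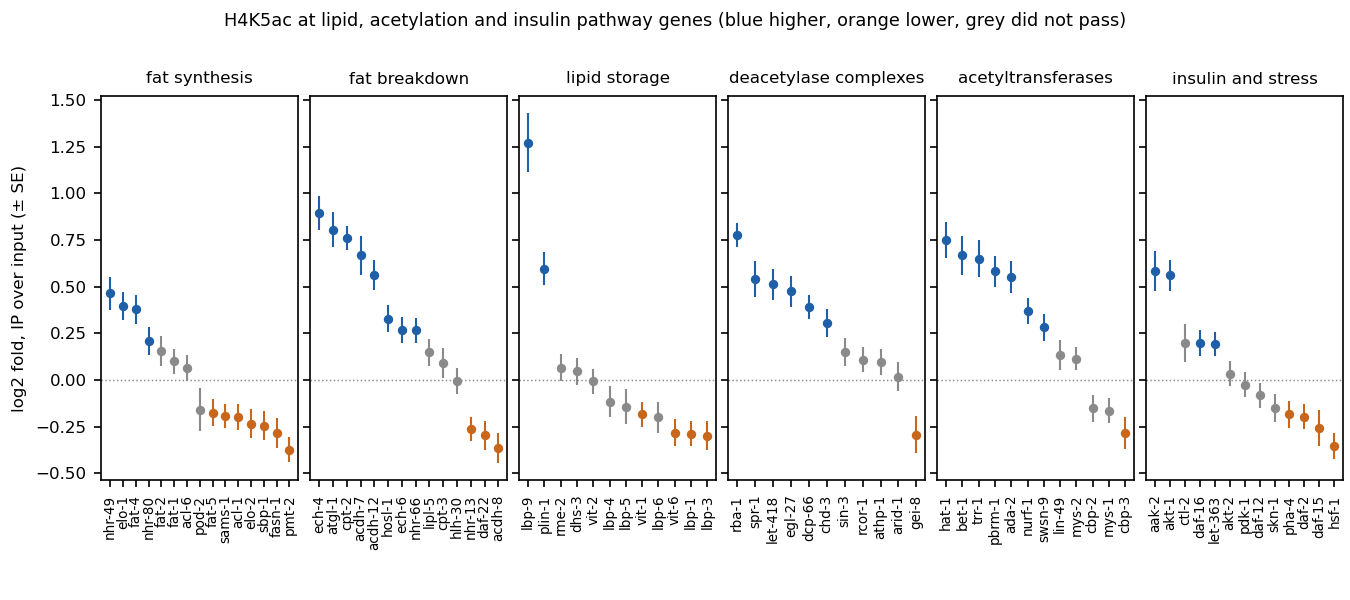
Log2 fold of IP over input with its SE (vertical axis) for the listed genes of 3 lipid groups, deacetylase complexes, acetyltransferases and insulin signalling and stress, in decreasing order within each group. Blue genes were higher, orange lower and grey did not pass. In fat breakdown 8 of 14 genes are blue, and in fat synthesis 4 of 15.

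Deacetylase complex subunits, and acetyltransferases with bromodomain proteins, held more higher than lower members. Their higher shares were 54.5% and 58.3%, against 32.2% of all genes. Of 11 genes of deacetylase complex subunits, 6 were higher and 1 lower (median 0.306), and the 6 held in every leave-one-out fit. At rba-1, for a histone-binding subunit of such complexes, IP levels were 166.1, 174.9 and 162.3 CPM and inputs 97.6, 98.8 and 96.9 CPM (0.78 ± 0.07, edgeR adjusted p = 8.049e-06), with little spread in either group. It lies beside its paralog lin-53 and K07A1.10, so the signal may be shared. The others were spr-1, a CoREST gene (0.54), the Mi-2 remodeller gene let-418 (0.51) and its paralog chd-3 (0.31), egl-27 (0.48) and dcp-66 (0.39). Scaled by total count, chd-3 missed the threshold (0.17, edgeR adjusted p = 0.0708). The lower one, gei-8, which encodes a corepressor related to NCoR, was at -0.29 ± 0.10 with overlapping groups, and missed the threshold in 3 leave-one-out fits. Of the deacetylases, sir-2.2, for a mitochondrial sirtuin, was the listed gene, at -0.10 ± 0.08 (edgeR adjusted p = 0.2653). Its direction changed with the scaling: it was lower under total count scaling (-0.24, edgeR adjusted p = 0.0206) and higher when scaled to the least enriched genes (0.24, edgeR adjusted p = 0.021). It was also lower without input replicate 1 (-0.186, edgeR adjusted p = 0.0386) and with limma-voom (-0.194, limma-voom adjusted p = 1.24e-05). The limma-voom sample weights were 0.176, 6.41 and 0.48 for IPs 1 to 3 and 0.376, 3.41 and 1.44 for inputs 1 to 3. That adjusted p thus rests mainly on replicate 2 of each group.

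Of 12 genes of histone acetyltransferases and bromodomain proteins, 7 were higher and 1 lower (median 0.326; 2 lower with the replicate block). At hat-1, whose product acetylates newly made H4 in other species, IP levels were 300.8, 261.2 and 226.9 CPM and inputs 163.2, 152.1 and 154.1 CPM (0.75 ± 0.10, edgeR adjusted p = 5.921e-05), with M03C11.3 as its neighbour. Next came the bromodomain genes bet-1 (0.67 ± 0.10) and pbrm-1 (0.58 ± 0.08), trr-1, for a subunit of the NuA4-like complex (0.65 ± 0.10), the adaptor gene ada-2 (0.55), nurf-1 (0.37) and swsn-9 (0.28), which missed the threshold under total count scaling (0.148, edgeR adjusted p = 0.117). The lower one was cbp-3, a paralog of the CBP/p300 gene cbp-1 (-0.28 ± 0.09), whose call was lost without input replicate 2. Called neither way were lin-49 (0.13) and the acetyltransferase genes mys-2 (0.11), cbp-2 (-0.15) and mys-1 (-0.16). The higher share of this group thus comes largely from bromodomain, adaptor and other subunit genes. Of 20 histone methylation genes, 13 were higher and 2 lower (median 0.302), from set-16, for an MLL-type methyltransferase (1.32 ± 0.13), to set-13 (-0.36 ± 0.07). Of 10 core histone genes, 2 were higher and 3 lower (median -0.029), from his-11 (0.70 ± 0.07) to his-38 (-0.28 ± 0.06). Their lower share (30%) is near that of all genes (29.5%), and their higher share is 20%, against 32.2%. Core histone genes are near-identical copies in clusters, and reads of one may have been counted for another.

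Insulin signalling and stress genes went both ways. Of the 13 listed genes described here, 4 were higher (30.8%) and 4 lower (30.8%), near the shares of all genes (median -0.024). The highest of these was aak-2, a catalytic subunit of the energy sensor AMPK, with IP levels of 360.9, 282 and 270.2 CPM and inputs of 204.5, 201.6 and 202.6 CPM (0.59 ± 0.11, edgeR adjusted p = 0.0007994). That every IP lay above every input was a condition for naming it as the highest. Next came the kinase gene akt-1 (0.56 ± 0.08). The FOXO gene daf-16 (0.20 ± 0.07) and the TOR kinase gene let-363 (0.19 ± 0.07) lost their calls in 4 leave-one-out fits each and under total count scaling. The lowest was hsf-1, the heat shock factor gene, with IP levels of 157.8, 151.9 and 160.8 CPM and inputs of 189.9, 196.8 and 215.1 CPM (-0.35 ± 0.07, edgeR adjusted p = 0.001407). The chaperone genes hsp-90, hsp-60 and hsp-1 stood at the upper end and hsf-1 near the lower end of the same table. These chaperone genes were picked from the top of the table. The 29 listed chaperone genes ran from -0.32 to 1.94 (median 0.408), and a link to hsf-1 was not tested. The insulin receptor gene daf-2 (-0.20 ± 0.07), daf-15, the worm Raptor gene (-0.26 ± 0.10), and the FoxA gene pha-4 (-0.18 ± 0.07) were lower and lost their calls in 3, 3 and 4 leave-one-out fits.

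Genes that the H4K8ac table does not name had a lower median than genes in both tables, and yet held several of the leading genes. Of these 1881 genes, 521 were higher (27.7%) and 739 lower (39.3%), with a median of -0.111. Without input replicate 2 the counts were 472 higher and 482 lower. Of the 3751 genes named in both tables, 1290 were higher (34.4%) and 920 lower (24.5%), with a median of 0.027. The genes hsp-60, rpn-3, hsp-90, tba-2, K08D12.3 and atgl-1 are all absent from the H4K8ac table by name. Absence by name is not absence of a region: 1323 of the 1881 genes (70.3%) have a H4K5ac region that overlaps a listed H4K8ac region, which there carries another gene's name. This held for 496 of the 521 higher genes (95.2%) and for 332 of the 739 lower ones (44.9%). A wider region has more room to overlap another, and width rose with the fold (Spearman 0.59 over all genes). Overlap was not compared at equal width, so these shares do not show how far the 2 marks are shared. The region at rpn-3 is named for mrpl-32 in the H4K8ac table, that at hsp-90 for C47E8.15, that at tba-2 for F08A8.5 and that at atgl-1 for mel-32. The regions at pmt-2, rsd-3, hsf-1, M79.5 and C54G7.11, all lower, overlapped no listed H4K8ac region. The 558 genes without an overlap had a median of -0.28.

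Non-coding genes ranged over most of the table. Of 32 microRNA genes, 18 were higher and 6 lower (median 0.242), from the X-linked mir-1829.2 (0.96 ± 0.10), which lies beside the coding gene F20D1.3, to mir-2217.5 (-0.35 ± 0.06). Of 78 small nucleolar and nuclear RNA genes, 25 were higher and 19 lower (median 0.032; 5 of the lower calls held in every leave-one-out fit), from F48A11.7 (1.25 ± 0.15) to F12F6.11 (-0.37 ± 0.08). Of 72 transfer RNA genes, 27 were lower and 12 higher (median -0.109; 10 of the lower calls held), from F22B7.t1 (-0.37 ± 0.08) to Y38E10A.t1 (1.02 ± 0.10), and copies of a transfer RNA are near-identical. Of 113 piRNA genes, 48 were lower and 19 higher (median -0.138; 29 of the lower calls held), from 21ur-12367 (-0.38 ± 0.10) to 21ur-3636 (0.91 ± 0.11). Of 20 long intergenic RNA genes, 7 were lower and 5 higher (median -0.087; 2 of the lower calls held), from linc-157 (-0.38 ± 0.08) to linc-90 (1.32 ± 0.13), which lies beside gei-4. Of 951 genes annotated only as ncRNA, 336 were lower and 219 higher (median -0.089). Small nucleolar and nuclear RNA genes (32.1% higher, 24.4% lower) and long intergenic RNA genes (25% and 35%) had shares near those of all genes (32.2% and 29.5%). The lower calls that held were 6.41% of the small nucleolar and nuclear, 13.9% of the transfer, 25.7% of the piRNA and 10% of the long intergenic RNA genes. For all genes this share was 16.2%. Many non-coding genes lie within or beside coding genes, and their counts cannot be separated from those of the neighbours.

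Genes on the X chromosome stood lower than genes on the autosomes. On X, 378 of 919 genes were lower (41.1%) and 162 higher (17.6%), with a median of -0.122. On the autosomes, 1281 of 4713 were lower (27.2%) and 1649 higher (35.0%), with a median of 0.014. Medians were 0.071 on chromosome I, 0.056 on III, -0.005 on IV, -0.012 on II and -0.067 on V. Genes between 25% and 75% of the length of their autosome had a median of 0.019, and genes nearer to the ends 0.008. Of the 100 highest genes 2 lay on X, and of the 100 lowest 29.

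The width of the listed region went with the fold. Medians were -0.244 for genes whose widest region was up to 2 kb (1112 genes), -0.115 for 2 to 5 kb (2129), 0.166 for 5 to 10 kb (1454), 0.346 for 10 to 15 kb (545) and 0.47 above 15 kb (392). The median widest region was 11099 bp for the 100 highest genes and 1799 bp for the 100 lowest. Across all genes the Spearman correlation of width and fold was 0.59. The regions were called on these same IPs, so width and fold are not independent measures. The fold was nearly unrelated to the number of annotated neighbours (Spearman 0.03), to the distance from region to gene start (-0.01) and to the mean input level (0.03). By the class of the region nearest the start, medians were 0.006 for promoter regions (2308 genes), -0.024 for exons (1022), -0.016 for introns (997), -0.046 for transcription ends (897) and -0.069 for intergenic regions (408).

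**Figure D4:**
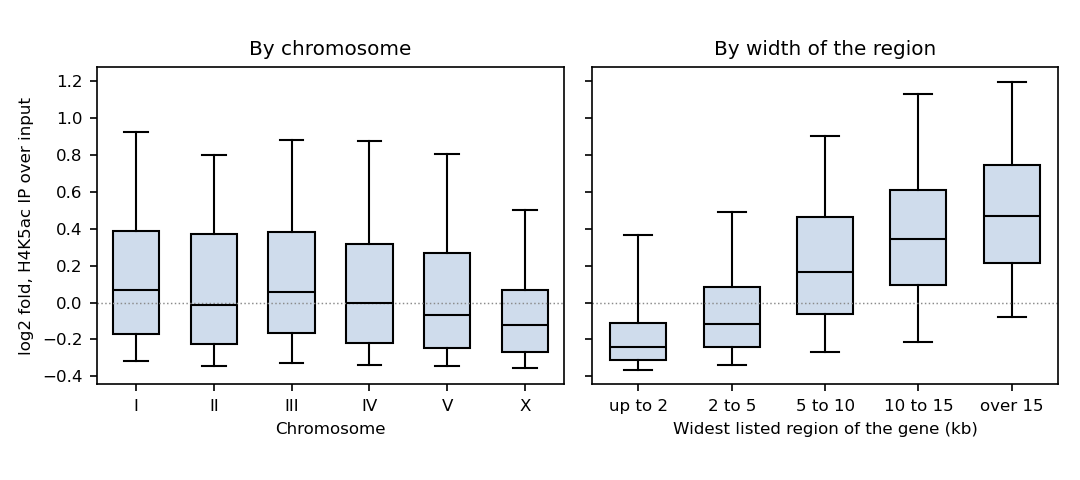
Log2 fold of IP over input (vertical axis) by chromosome (left) and by the width of the gene's widest listed region (right). Boxes span the quartiles with the median as a line, and whiskers reach from the 5th to the 95th percentile of genes. The box of X lies lowest among the chromosomes, with a median of -0.122, and the boxes rise with width from a median of -0.244 to 0.47.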

How the data were processed

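Per the labels' protocols, chromatin of whole adult worms was sheared to 0.2 to 1 kb, and IP and input DNA were sequenced in pairs. Per the submitters' processing notes the authors used bcl2fastq 2.17, Trimmomatic 0.33, Bowtie 1.1.2 and MACS2 2.1.0, with the builds WBcel235 and hg38. The roles of the builds, the way reads were counted and any pooling before regions were called are not given in the sources used here. The authors deposited 1 estimated count per gene and library, not normalized and repeated on each region of the gene. The fold of a gene with close neighbours can therefore hold their reads.

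Estimated counts were rounded to whole numbers and reduced to 1 value per gene. Of 5632 names, 5615 matched the RefSeq gene table of WBcel235 on the same chromosome, and for 7 names stored as calendar dates the listed transcript gave the gene. IP was compared with input over the 6 libraries in R 4.3.3 by the quasi-likelihood test of edgeR 4.0.16, after TMM scaling. P-values were adjusted over all 5632 genes (Benjamini-Hochberg) and called at 0.05. With a common dispersion of 0.00514, filterByExpr left out 0 genes. CPM are TMM-scaled. The SE of a fold is its absolute log2 value divided by the square root of the quasi-likelihood F statistic. That statistic comes from 3 libraries a group, with the spread of each gene moderated by that of all genes. The labels do not say whether replicates are separate cultures, so p-values measure only how these samples spread, and that spread may be technical. Replicates differed beyond counting noise in every pair (chi-square per degree of freedom 1.54 to 22.9), and none was treated as a duplicate. IPs and inputs of the same number deviated together (correlations 0.277, 0.11 and 0.226 across genes). Pairs of different numbers ran from -0.252 to 0.151, and IP 2 with input 3 (0.145) and IP 3 with input 2 (0.151) exceeded the lowest same-number value. Each same-number value was over 0.1, but so were those different-number values, so the data alone do not settle the pairing. The main fit was unpaired, and its p-values ignore the numbers. Only the fit with the replicate block took the numbers as pairs, and it gave 1884 higher and 1850 lower genes.

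Genes were grouped in 41 lists, 40 of them with at least 3 listed members. The genes described and the lists were chosen with earlier results of these data known, and some lists were corrected after their members' values were seen, so lists are described by counts and medians and carry no test. Genes named are the 12 highest and 12 lowest past the threshold whose IP and input levels do not overlap, the 5 highest and 5 lowest of those absent from the H4K8ac table, the highest and lowest such member of each list, and the lipid, acetylation and insulin genes; 1 gene is left out of its list and is not reported here. Alternatives were other scalings (DESeq2 1.42.0 size factors, total count, least enriched genes), the DESeq2 test, limma-voom (limma 3.58.1) with sample weights, no filter, a mean CPM of at least 50, the replicate block, genes with a listed neighbour within 2 kb left out, and each library left out in turn. No genome or promoter sequences were used here.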

Additional observations from a re-analysis of the deposited data

How the results depend on the processing

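The counts of higher and lower genes, over all genes and over genes absent from the H4K8ac table, stayed within 1.5 times of those reported under DESeq2 size factors, the DESeq2 test, limma-voom with sample weights, both filters, the replicate block and the fit without crowded genes. Total count scaling gave 2627 lower genes. Scaling to the least enriched genes gave 3619 higher and 0 lower over all genes, and 1026 higher and 0 lower among the absent genes. Leaving out each library in turn gave 1570 to 1851 higher and 1079 to 1747 lower genes, and among the absent genes 472 to 540 higher and 482 to 776 lower; the lowest counts of lower genes came without input replicate 2. With the replicate block, 1884 genes were higher and 1850 lower; it changed no call of a named gene. It added 1 lower member to the mitochondrial ribosomal, chaperone, acetyltransferase and germline lists and moved no other list count by over 1.5 times.

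Of 131 named genes past the threshold, 114 kept their call in all 6 leave-one-out fits, and 17 lost it in at least 1 (14 lower, 3 higher). Scaled to the least enriched genes, 34 named lower genes were no longer past it, at -0.04 to -0.004, and 24 named genes turned positive: sir-2.2 0.24 (adjusted p = 0.021), fat-5 0.171, cox-18 0.165, pha-4 and vit-1 0.16, sams-1 0.151, daf-2 0.15, acl-1 0.146, elo-2 0.107, sbp-1 0.094, daf-15 0.084, nhr-13 0.081, his-38 0.064, vit-6 0.06, fasn-1 0.058, cbp-3 0.056, cdk-4 and lbp-1 0.053, elt-1 and gei-8 0.048, daf-22 0.044, lbp-3 0.04, mlc-2 0.038 and dars-2 0.036. Under total count scaling 7 named higher genes missed the threshold: chd-3 0.17, swsn-9 0.148, ech-6 0.133, nhr-66 0.131, nhr-80 0.073, daf-16 0.062 and let-363 0.057. Called neither way as reported, sir-2.2 and pod-2 were lower under total count scaling and limma-voom. The largest limma-voom sample weights were those of IP 2 (6.41) and input 2 (3.41). Without genes that have a listed neighbour, the median of the fat synthesis list minus that of all genes turned positive (0.082). With limma-voom the list medians minus that of all genes turned positive for hypodermal genes (0.002) and for P450, UGT, GST and dehydrogenase genes (0.015); the cause was not tested. At this depth and spread, folds near the lower end, where the deposited lines stop, could not be ordered.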

Other observations

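Genes whose starts lie close together had similar folds. For 579 neighbouring pairs of listed genes with starts up to 4 kb apart, the Spearman correlation of their log2 folds was 0.48 and the median difference 0.13. For 1686 pairs 4 to 10 kb apart it was 0.05 and the median difference 0.27, and for pairs farther apart the correlation was 0.02 to 0.08. The pairs share libraries and, when close, may share reads, so these correlations carry no test.

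The longest unbroken run of higher genes along a chromosome held 9 listed genes over 103 kb of chromosome I, from pbrm-1 to wdr-23, with log2 folds of 0.30 to 1.15 and a median of 0.49. It includes dcp-66, a deacetylase complex gene, and prg-1, which encodes the Piwi protein that binds piRNAs. A run of 6 higher genes over 88 kb of chromosome IV holds the splicing gene hrp-1, the proton pump gene vha-19 and pdhb-1, for a subunit of pyruvate dehydrogenase, around B0546.4. Among runs of lower genes, 7 genes over 113 kb of chromosome IV include the lectin genes clec-67, clec-72, clec-73 and clec-79 (folds of -0.37 to -0.17), and 7 genes over 142 kb of X include the collagen genes col-184 and col-185 and end at cdk-4 (median -0.30). The runs were picked for their length after the folds were known.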
